A study of Drosophila melanogaster with 9 samples.

Results

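The cytosolic glutathione transferases of Drosophila melanogaster were followed across 9 RNA-sequencing libraries of adult female midgut. The genes were chosen by name: every gene identifier of the count tables whose FlyBase symbol began with GstD, GstE, GstO, GstS, GstT or GstZ was taken. This gave 35 of the 15682 identifiers, namely 11 Delta, 14 Epsilon, 3 Omega, 1 Sigma, 4 Theta and 2 Zeta genes.

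Glutathione transferases join the tripeptide glutathione to reactive, mostly electrophilic compounds, which makes those compounds more soluble and ready for export. The Delta and Epsilon classes are expanded in insects and lie largely in tandem arrays, whereas the Omega, Sigma, Theta and Zeta classes are shared with mammals. In the fly, the transcription factor CncC, held back by its inhibitor Keap1, raises transcription of several of these genes under oxidative or chemical stress, and a GstD1 reporter is a common readout of that pathway. The gut is one of the tissues in which the family meets dietary toxins and the oxidants that the epithelium makes itself.

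The midguts came from virgin females on a w1118 background, given as 15 days old in the labels. The control group was labelled wild type. The mutant group carried a mutation in transformer (tra), a splicing factor gene of the female sex determination pathway, whose allele the labels do not name. The rescue group was tra mutant and also carried the female form of tra (traF) under esg, a driver active in the stem cells and enteroblasts of the adult midgut. For all groups the labels describe rearing and 3 days of ageing at 18 °C, followed by 10 days at 29 °C, the temperature that induces the transgene. Each group had 3 libraries, each from 30 pooled midguts, and nothing in the labels says that replicates came from separate cultures. The p-values therefore reflect spread among these libraries alone, and that spread may be technical. Because whole midguts were sequenced, fewer cells of a type and less RNA per cell cannot be told apart, and the cells in which a gene changed are not known.

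Levels are counts per 1000000 gene counts (CPM) after TMM scaling, which corrects library totals for differences in composition. Gene counts ran from 84839470 to 108455374 per library. tra averaged 7.36 CPM in controls, 0.0136 in mutant libraries and 5.18 in rescue libraries, the order the labels imply. Control replicate 3 lay far from its group on the leading principal component of all genes (-64.2, against -34.6 and -34.5), so counts of changed genes are also given without it. Among 7 enterocyte markers the summed level was 38525 to 66173 CPM in controls, 66990 to 81853 in mutant libraries and 59900 to 71124 in rescue libraries. The sum of 6 enteroendocrine markers was 329 to 393, 454 to 506 and 465 to 579 CPM in the same order. The enterocyte list includes the digestive enzyme genes alphaTry, betaTry, Amy-p and Mal-A1. More enterocytes and more transcript of these enzymes therefore cannot be told apart in the enterocyte sum. Markers of fat body, a tissue next to the gut, summed to 15.6 to 97.5 CPM in controls, 5.22 to 7.13 in mutant libraries and 6.72 to 12.1 in rescue libraries. These markers include the yolk protein genes Yp1, Yp2 and Yp3. Less fat body and less yolk protein transcript therefore cannot be told apart in this sum. Haemocyte markers summed to 8.44 to 32.4, 2.40 to 6.89 and 3.45 to 19.6 CPM, and the Malpighian tubule list to 1.67 to 2.67, 2.17 to 4.10 and 1.34 to 5.07 CPM. Neuronal markers summed to 18.9 to 21.0, 22.2 to 27.2 and 27.5 to 32.6 CPM, the tracheal gene trh measured 3.40 to 4.53, 2.07 to 2.30 and 2.12 to 2.82 CPM, and ovary markers reached at most 0.168 CPM in sum. Of 5 progenitor markers 3 were matched to identifiers (klu, Sox21a and upd3), with sums of 18.8 to 95.9, 22.2 to 25.5 and 18.5 to 21.0 CPM. The markers esg and Dl were not matched, so progenitors are read here without them. The fat body gene Fbp1 and the tubule gene Uro were at 0 or below 0.5 CPM in every library.

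Within the family, transcript levels differed far more between genes than between groups. Dividing CPM by the length of each gene's merged exons, so that genes could be compared, put GstD1 first, with a mean of 1457 CPM per kilobase over the 9 libraries. GstD1 is the Delta enzyme known for acting on DDT. GstT4 (716 CPM per kilobase), GstE3 (714) and GstE6 (514) followed. These 4 genes took 58.1% to 61.6% of the summed per-kilobase level of the family in control libraries, 59.7% to 64.0% in mutant libraries and 60.9% to 65.7% in rescue libraries. In all, 12 genes averaged over 100 CPM per kilobase, 18 lay between 1 and 100, and 5 lay under 1. The lowest 5 were GstD6 (0.517 CPM per kilobase), GstZ2 (0.411), GstD11 (0.240), GstE14 (0.0240) and GstE4 (0.832).

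**Figure D1:**
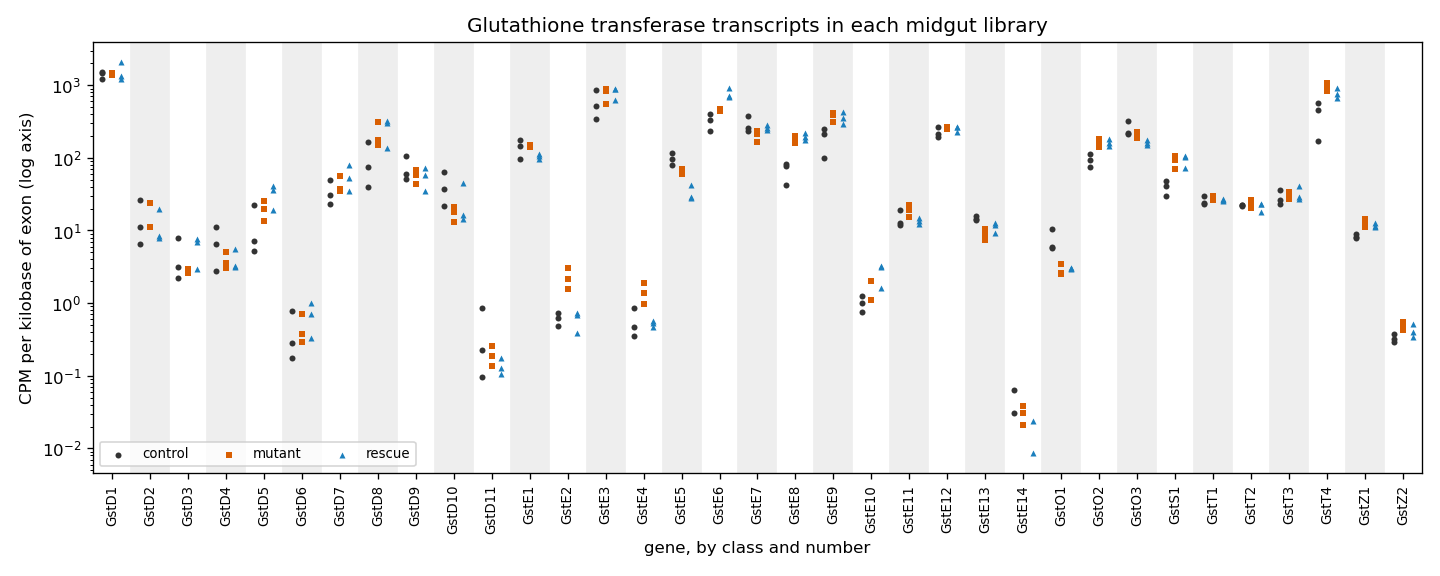
Level of each glutathione transferase gene in CPM per kilobase of exon (log axis), 1 point per library, in control, mutant and rescue midguts, with genes ordered by class. Libraries at 0 (GstE14 in control replicate 3 and rescue replicate 3) cannot be drawn. GstD1 stands highest, at a mean of 1457 over the 9 libraries, and GstE14 lowest, at 0.0240.

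GstE14, known as Noppera-bo for its part in making the steroid hormone ecdysone, had 21 counts over all 9 libraries and at most 6 in any of them. It was the only one of the 35 genes left out of the tests by the filter on low counts.

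The most abundant gene of each class can be followed library by library. GstD1 (FBgn0001149) measured 1014, 1289 and 1260.5 CPM in control replicates 1 to 3, 1231, 1149.5 and 1219 in mutant libraries and 1117, 1761 and 1012 in rescue libraries. The groups overlapped, and rescue replicate 2 was above all others. The log2 difference from control was 0.01 ± 0.22 (SE) in the mutant and 0.13 ± 0.22 in rescue libraries, neither past the threshold (edgeR adjusted p = 0.977 and 0.748). GstE3 (FBgn0063497) measured 255, 657 and 396 CPM in controls, 677, 636 and 416 in mutant libraries and 473, 666 and 675 in rescue libraries, again with overlap and with a wide spread among controls. The other leading genes, GstO3, GstS1, GstT4 and GstZ1, are described with their classes.

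Summed over each class, per-kilobase levels showed how the family was made up. Epsilon genes made up 42.6% ± 3.53 (SD, n = 3) of the family's level in control, 42.7% ± 3.48 in mutant libraries and 46.2% ± 3.35 in rescue libraries. Delta genes made up 37.9% ± 7.17, 31.0% ± 1.38 and 32.1% ± 4.79 in the same order. Theta genes, mostly GstT4, made up 10.5% ± 4.13, 18.2% ± 2.70 and 14.5% ± 3.48. The Omega share was 7.82% ± 0.490 in controls, 6.27% ± 0.108 in mutant libraries and 5.45% ± 0.663 in rescue libraries, with every mutant and rescue library below every control library. The summed CPM of the Omega genes was not lower, at 391 ± 81.6 in controls, 457 ± 25.1 in mutant libraries and 428 ± 26.1 in rescue libraries. Sigma took 0.905% ± 0.301, 1.54% ± 0.313 and 1.55% ± 0.302, and Zeta about 0.2% in each group. These shares are descriptions and were not tested. The summed CPM of all 35 genes was 3655, 5000 and 3729 in controls, 5798, 5564 and 5361 in mutant libraries and 5259, 6608 and 5299 in rescue libraries. Every mutant and rescue library was above the highest control library by this sum, and control replicate 2 was the closest to them.

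**Figure D2:**
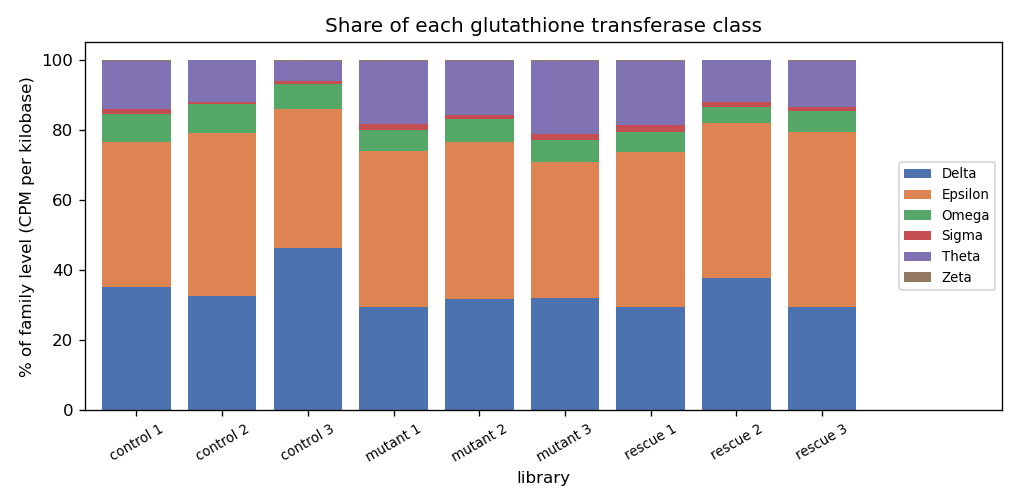
Share of the family's summed per-kilobase level (percent) taken by each class in each of the 9 libraries. The Theta share runs from 5.89% in control replicate 3 to 21.0% in mutant replicate 3, and the Zeta share, near 0.2%, is too thin to see.

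The mutant was compared with control to ask what the loss of tra changes in the female midgut. 5 glutathione transferase genes rose (GstE2, GstE8, GstO2, GstS1 and GstZ1) and 2 fell (GstE13 and GstO1), while 27 of the 34 tested did not pass the threshold of an edgeR adjusted p of 0.05; over all genes 6.67% passed in either direction. The rise was largest for GstE2, a gene of low level, at 3.64-fold. It was 2.73-fold for GstE8 and 2.25-fold for GstS1. The 5 that rose were 14.7% of the 34 genes, beside 3.66% of all 10088 genes tested, and the 2 that fell were 5.88%, beside 3.01%. For 14 of the 34 (41.2%) the 3 mutant libraries did not overlap the 3 control libraries, which was so for 25.6% of all genes. The median log2 difference was 0.15 over the family and -0.03 over all genes. Without control replicate 3, 7 rose and 2 fell: GstD5, GstD8 and GstT4 were added and GstO2 no longer passed. Over all genes 346 rose and 320 fell there, in place of 369 and 304. Without mutant replicate 1, 2 genes passed (GstE2 and GstE8), and over all genes the number passing went from 673 to 329. Without mutant replicate 3, 1 passed (GstE8), beside 350 over all genes. With the replicate number as a block, 8 passed (GstE9 added), beside 759 over all genes. With the block within the 6 libraries compared, 5 passed (GstO1, GstO2 and GstZ1 lost, GstD10 gained), beside 379. Marker levels moved as well: the enterocyte and enteroendocrine sums of all mutant libraries lay above those of all controls, and the fat body and haemocyte sums below. By gene, 1 of 7 enterocyte and 1 of 6 enteroendocrine markers rose, 4 of 7 fat body markers fell, and none of 3 haemocyte markers passed with edgeR, all 3 being lower at an unadjusted p under 0.05. At that threshold 11.2% of all genes were higher and 12.8% lower in the mutant. Log2 differences of the 7 enterocyte markers ran from -0.18 to 1.26, 6 of them positive and 1 negative, with a median of 0.07. Log2 differences of the 7 fat body markers ran from -7.13 to 0.63, 6 of them negative and 1 positive. The neuronal sum of all mutant libraries was also above all controls, with 1 of 4 markers risen, and trh fell. 1 of 5 Malpighian tubule markers rose while the tubule sums overlapped. The visceral muscle sum was 1364 to 1742 CPM in controls, 961 to 1241 in mutant libraries and 1016 to 1416 in rescue libraries; in the mutant it lay below control, with none of 6 markers passing and 3 lower at an unadjusted p under 0.05. None of 3 progenitor markers passed, and 1 was lower at that threshold. The part of these markers in the differences was not tested.

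The rescue was compared with control to ask what remained different when the female form of tra was present in esg-expressing cells of a mutant fly. Here 6 genes rose (GstE6, GstE8, GstE10, GstO2, GstS1 and GstZ1) and 2 fell (GstE5 and GstO1), and 26 did not pass; over all genes 9.44% passed in either direction. The genes that rose were 17.6% of the 34, beside 4.79% of all genes, and those that fell 5.88%, beside 4.65%. Rescue and control libraries did not overlap for 12 genes (35.3%), beside 31.4% of all genes. The median log2 difference was 0.14 over the family and -0.03 over all genes. With upper-quartile scaling in place of TMM the split was 5 higher and 3 lower, GstO3 replacing GstZ1. Over all genes it was then 440 higher and 514 lower, in place of 483 and 469. Without control replicate 3 the split was 7 higher and 3 lower, with GstD5, GstD8 and GstO3 added and GstZ1 lost. Over all genes it was 440 and 486 there. Without rescue replicate 2, and likewise without rescue replicate 3, 4 genes passed (GstE5, GstE6, GstE8 and GstS1), while over all genes 428 and 360 passed in place of 952. Both comparisons used the same 3 control libraries, so their values below are set side by side and are not independent. In the rescue the enteroendocrine sum lay above control, with 4 of 6 markers risen, and the fat body sum below it, with 3 of 7 fallen, while the enterocyte and haemocyte sums overlapped control. The neuronal sum lay above control, with 2 of 4 markers risen. trh was below control in every rescue library without passing, though lower at an unadjusted p under 0.05. 1 of 7 enterocyte and 1 of 5 tubule markers rose. None of 6 visceral muscle, 3 haemocyte or 3 progenitor markers passed, and 3, 0 and 2 of them were lower at an unadjusted p under 0.05, beside 12.6% of all genes higher and 14.7% lower at that threshold. Their part was not tested here either.

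**Figure D3:**
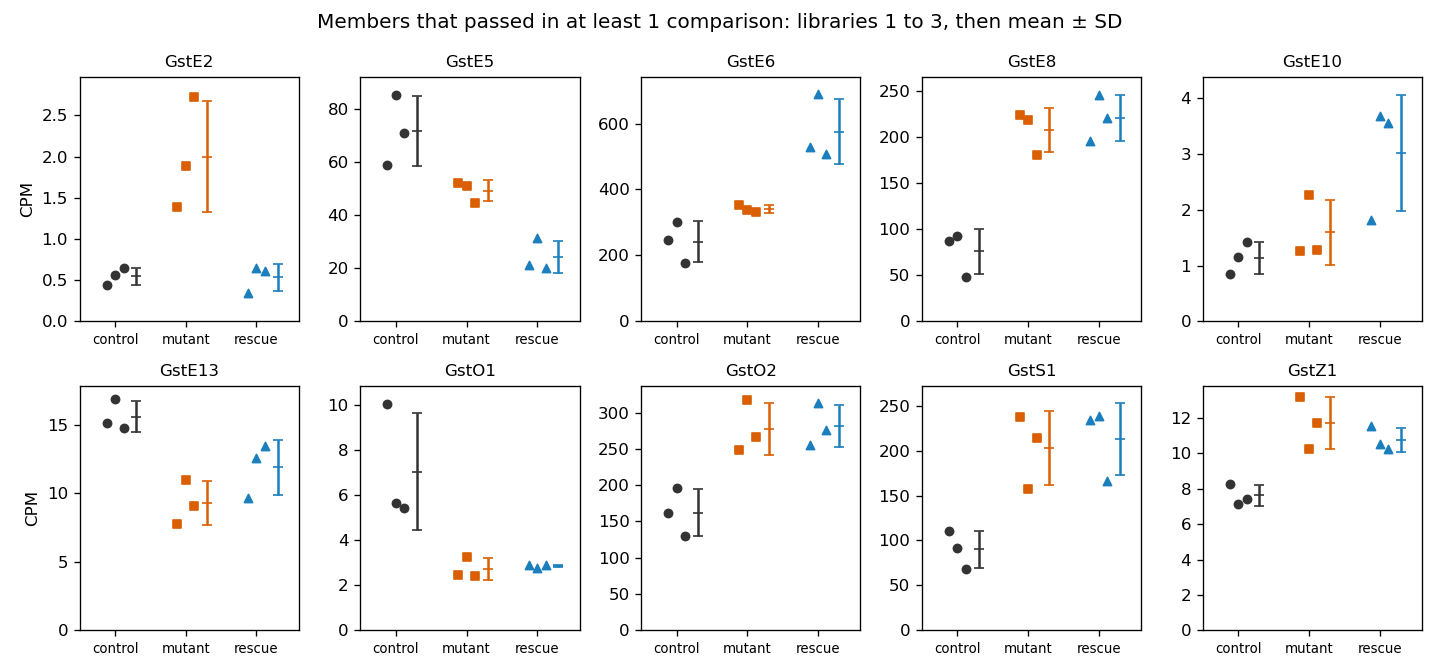
CPM of the 10 genes that passed in at least 1 comparison: each point is a library in replicate order, and the bar beside it gives mean ± SD (n = 3). GstE2 is high only in mutant libraries (1.39 to 2.73 CPM), GstE8 is above control in both other groups, and GstE5 is lowest in rescue libraries.

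Between rescue and mutant no glutathione transferase gene passed with edgeR. The count at an unadjusted p under 0.05 was 3 higher and 5 lower in the rescue, beside 2.9% and 2.16% of all genes. DESeq2 called 1 higher (GstE6) and 3 lower (GstE2, GstE4 and GstE5), and 1.24% of all genes in either direction. Few genes passed anywhere in this comparison: 0.188% of all genes rose and 0.278% fell, 0.466% in all. The libraries of both groups did not overlap for 8 of the 34 (23.5%), beside 12.2% of all genes. GstE5 came closest, together with GstE2, both at an edgeR adjusted p of 0.0632. Without rescue replicate 2, GstE5 passed.

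Of the 10 genes that passed in at least 1 comparison, 5 lie in the Epsilon array on chromosome arm 2R, which holds 10 of the 34 genes tested. The array runs GstE10, GstE1, GstE2 and so on to GstE9, 10 genes with 9 on the same strand and under 10 kb between neighbours. Between mutant and control, 2 of its 10 genes rose and none fell, beside 3.66% and 3.01% of all genes. Between rescue and control, 3 rose and 1 fell, beside 4.79% and 4.65% of all genes. Neighbours could differ in direction: in the rescue GstE5 fell and GstE6 rose against control.

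GstE8 (FBgn0063492) rose in both groups against control. Its level was 87.6, 92.7 and 48.1 CPM in controls, 224, 219 and 180.4 in mutant libraries and 196, 245 and 220.3 in rescue libraries. Every mutant and rescue library was above every control library, and mutant and rescue overlapped. The log2 difference was 1.45 ± 0.23 (SE) for mutant against control (edgeR adjusted p = 0.00661) and 1.53 ± 0.23 for rescue against control (edgeR adjusted p = 0.00442). Both passed under all 18 alternative settings.

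GstE2 (FBgn0063498) was a transcript of low level with its own pattern. It measured 0.437, 0.563 and 0.642 CPM in controls, 1.39, 1.89 and 2.73 in mutant libraries and 0.343, 0.647 and 0.614 in rescue libraries. All mutant libraries were above all others, while rescue and control overlapped. It rose in the mutant by 1.87 ± 0.35 log2 units (edgeR adjusted p = 0.0140; 0.0552 without mutant replicate 3). The rescue differed from the mutant by -1.91 ± 0.35, which missed the threshold (edgeR adjusted p = 0.0632), and from control by -0.04 ± 0.35. GstE4 (FBgn0063496), also low, had similarly placed libraries: 0.396, 0.723 and 0.294 CPM in controls, 1.57, 1.15 and 0.822 in mutant libraries and 0.395, 0.480 and 0.452 in rescue libraries. Mutant libraries did not overlap either other group, but the mutant difference from control, 1.33 ± 0.39, did not pass (edgeR adjusted p = 0.0709). It passed with DESeq2, with library totals alone and without control replicate 2.

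GstE5 and GstE6, which are neighbours, were the 2 of the 34 tested members whose 3 groups were all apart from each other, as were 2.67% of all genes, and their orders were opposite. GstE5 (FBgn0063495) measured 59.0, 85.2 and 70.9 CPM in controls, 52.1, 51.0 and 44.6 in mutant libraries and 21.0, 31.2 and 20.3 in rescue libraries. The rescue was thus lowest, with the mutant between it and control. GstE5 fell by 1.57 ± 0.19 (log2) in the rescue against control (edgeR adjusted p = 0.00149). Its differences of -0.54 ± 0.19 for mutant against control and -1.03 ± 0.19 for rescue against mutant did not pass (edgeR adjusted p = 0.116 and 0.0632). GstE6 (FBgn0063494) measured 246, 302 and 177 CPM in controls, 354, 337 and 332 in mutant libraries and 529, 689 and 509 in rescue libraries, which was highest. It rose by 1.25 ± 0.20 in the rescue against control (edgeR adjusted p = 0.00625). The steps from control to mutant (0.50 ± 0.20) and from mutant to rescue (0.76 ± 0.20) did not pass (edgeR adjusted p = 0.166 and 0.340). The calls for both genes against control passed under all 18 alternatives.

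GstE10 (FBgn0063499), at the end of the array, measured 0.844, 1.15 and 1.42 CPM in controls, 1.25, 2.27 and 1.27 in mutant libraries and 1.82, 3.68 and 3.54 in rescue libraries. All rescue libraries were above the controls but not above the mutant libraries. It rose in the rescue by 1.40 ± 0.36 (edgeR adjusted p = 0.0390). This call was lost without control replicate 1 (0.0838) or 2 (0.0753), mutant replicate 1 (0.0528) or 3 (0.0539), or rescue replicate 2 (0.117) or 3 (0.122), all edgeR adjusted p. GstE10 overlaps exons of GstE1 on the other strand, and GstE1 was far higher, at 78.9 to 147 CPM in control libraries, 118 to 124 in mutant and 79.3 to 93.5 in rescue libraries. In all, 7 members overlap exons of a gene on the other strand (GstE1, GstE9, GstE10, GstE12, GstE13, GstO2 and GstT2), and whether reads of such pairs were counted by strand is not given in the sources used here.

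GstE9 (FBgn0063491), at the other end, measured 165, 199 and 79.3 CPM in controls, 306, 332 and 244 in mutant libraries and 233, 334 and 275 in rescue libraries. Control libraries lay below both other groups. The log2 differences from control, 0.99 ± 0.30 and 0.93 ± 0.30, did not pass (edgeR adjusted p = 0.0789 and 0.0803). With the replicate number as a block, the mutant difference passed (edgeR adjusted p = 0.0371). Both differences passed with DESeq2, with library totals alone and without control replicate 2. GstE9 overlaps imd, a gene of the immune deficiency pathway, on the other strand, whose level was 22.0 CPM in controls, 24.1 in mutant libraries and 22.9 in rescue libraries. GstE1, GstE3 and GstE7 did not pass in any comparison in the edgeR fit to all 9 libraries. GstE1 passed as lower in the rescue than in control without control replicate 1. GstE7 ranged from 126 to 285 CPM over the 9 libraries.

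**Figure D4:**
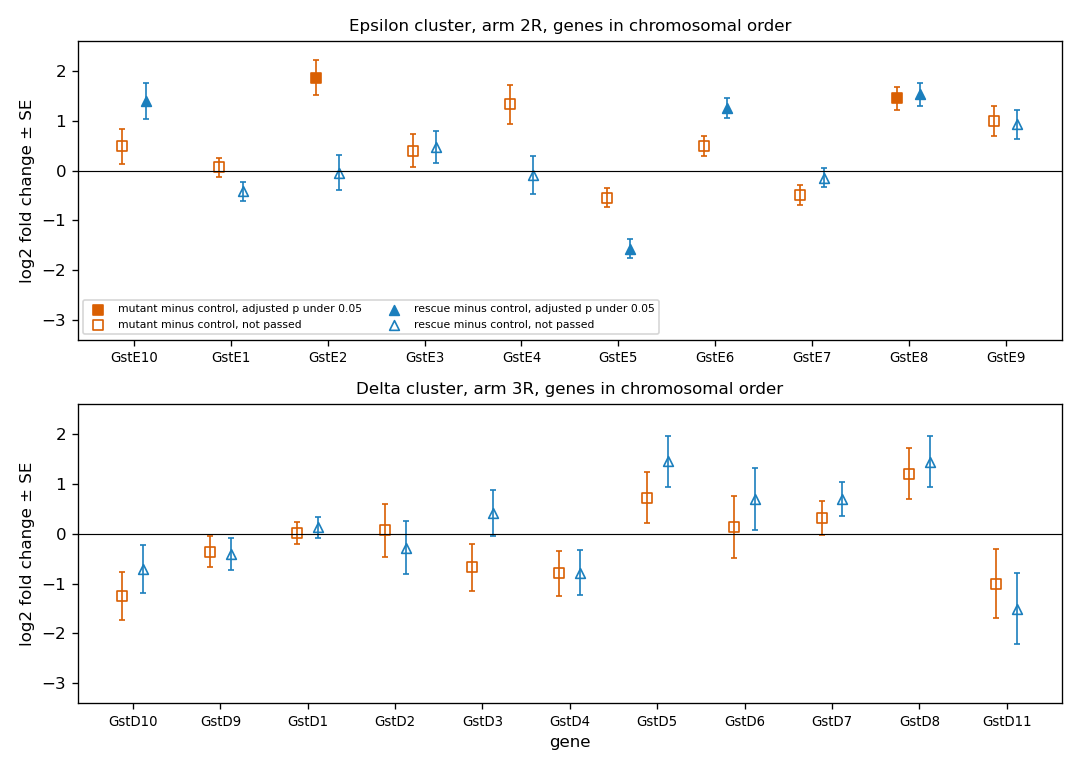
Log2 fold change ± SE against control of each gene of the Epsilon array and the Delta array in chromosomal order, for mutant and rescue. Filled symbols passed an edgeR adjusted p of 0.05: 4 in the Epsilon array for the rescue, 2 for the mutant, and none in the Delta array.

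4 Epsilon genes lie outside the array, and 1 of the 3 tested changed. GstE13 (FBgn0033381) measured 15.1, 16.9 and 14.8 CPM in controls, 7.75, 11.0015 and 9.10 in mutant libraries and 9.65, 12.6 and 13.4 in rescue libraries. Control libraries were above all others. It fell in the mutant by 0.75 ± 0.16 log2 units (edgeR adjusted p = 0.0256). The call was lost without control replicate 2 (0.0603), mutant replicate 1 (0.0939) or mutant replicate 3 (0.0983), all edgeR adjusted p. The rescue difference from control, -0.39 ± 0.16, did not pass (edgeR adjusted p = 0.154). GstE13 overlaps CG18659 on the other strand, whose level was 69.2 ± 29.1 CPM (SD) in control, 52.2 in mutant libraries and 49.4 in rescue libraries. GstE12, a gene of high and even level, ranged from 274 to 375 CPM over the 9 libraries, and GstE11 from 11.3 to 20.9; neither passed in any comparison.

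None of the 11 Delta genes, all in an array on arm 3R, passed in any comparison in the edgeR fit to all 9 libraries without a block. GstD5 and GstD8 passed against control without control replicate 3, GstD10 in the mutant with the block within the 6 libraries compared, GstD7 in the rescue with the block in either fit, and GstD8 in the rescue with the block within the 6. At an unadjusted p under 0.05, the counts were 1 higher and 1 lower for mutant against control, where 11.2% and 12.8% of all genes were. They were 2 higher and none lower for rescue against control (12.6% and 14.7% of all genes), and 1 higher and none lower for rescue against mutant (2.9% and 2.16%). DESeq2 called none of the 11, beside 14.1%, 17.9% and 1.24% of all genes in the same order. The spread between replicates was wide here. Among control libraries the ratio of the highest to the lowest had a median of 3.97 over the Delta genes and 1.68 over the Epsilon genes. The same medians were 1.67 and 1.42 in mutant libraries and 2.26 and 1.36 in rescue libraries. Control replicate 3 was the highest control library for 8 of the 11 genes, and rescue replicate 2 the highest rescue library for 10 of the 11.

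For 2 Delta genes, control replicate 3 decided whether a difference passed. GstD8 (FBgn0010044) measured 31.9, 60.6 and 132 CPM in controls, 143, 255 and 119.7 in mutant libraries and 111, 261 and 243 in rescue libraries. That control library lay inside the range of both other groups and the other control libraries lay below them. The log2 difference from control was 1.20 ± 0.51 in the mutant (edgeR adjusted p = 0.188) and 1.45 ± 0.52 in the rescue (edgeR adjusted p = 0.106). Without control replicate 3 it was 1.91 (edgeR adjusted p = 0.0451) and 2.16 (edgeR adjusted p = 0.0253). GstD5 (FBgn0010041) was similarly placed, at 4.32, 6.08 and 19.1 CPM in controls, 16.6, 21.1 and 11.3 in mutant libraries and 16.2, 34.4 and 30.4 in rescue libraries. Its mutant difference of 0.73 ± 0.51 (edgeR adjusted p = 0.417) became 1.66 without that library (edgeR adjusted p = 0.0281), and its rescue difference of 1.45 ± 0.52 (edgeR adjusted p = 0.106) became 2.39 (edgeR adjusted p = 0.00557).

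GstD10 (FBgn0042206) measured 18.9, 33.0 and 56.5 CPM in controls, 11.6, 15.5 and 18.3 in mutant libraries and 14.1, 39.7 and 12.6 in rescue libraries. The mutant libraries were all below the controls, by a narrow gap, and the rescue overlapped both. The mutant difference of -1.26 ± 0.48 did not pass (edgeR adjusted p = 0.148), and was -0.77 without control replicate 3 (edgeR adjusted p = 0.400). With the replicate number as a block it was -1.14 within the 6 libraries compared and passed (edgeR adjusted p = 0.0493), but not over all 9 (edgeR adjusted p = 0.116). GstD2, GstD3, GstD4, GstD6, GstD7, GstD9 and GstD11 ranged from 0.107 CPM, in a control library for GstD11, to 83.0 CPM, in a control library for GstD9. The smallest edgeR adjusted p among these 7 was 0.210, for GstD11 in the rescue against control.

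The Omega class, whose enzymes work mainly as thiol transferases and reductases, had 1 gene that rose and 1 that fell in each comparison with control. The genes lie in a row on arm 3L, in the order GstO3, GstO2, GstO1, with sepia (se) inside the row. se makes a red eye pigment precursor; its symbol kept it outside the set. GstO2 overlaps se on the other strand, and se averaged 0.608 CPM in controls, 0.817 in mutant libraries and 0.706 in rescue libraries. GstO2 (FBgn0035906) measured 161, 196 and 130.0 CPM in controls, 249, 318 and 267 in mutant libraries and 255, 314 and 276 in rescue libraries. All control libraries were below the other groups, which overlapped. It rose by 0.77 ± 0.17 log2 units in the mutant (edgeR adjusted p = 0.0288) and by 0.80 ± 0.17 in the rescue (edgeR adjusted p = 0.0230). The mutant call was lost without control replicate 1 (0.0585) or 3 (0.0502), mutant replicate 1 (0.0570), 2 (0.0966) or 3 (0.0800), or rescue replicate 3 (0.0518), and with the replicate block within the 6 libraries compared (0.0533). The rescue call was lost without rescue replicate 2 (0.0813) or 3 (0.0710), all edgeR adjusted p.

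GstO1 (FBgn0035907) measured 10.0, 5.63 and 5.43 CPM in controls, 2.44, 3.26 and 2.42 in mutant libraries and 2.90, 2.78 and 2.87 in rescue libraries. Control libraries were above the rest, most of all control replicate 1. GstO1 fell by 1.37 ± 0.25 (log2) in the mutant (edgeR adjusted p = 0.0124) and by 1.30 ± 0.25 in the rescue (edgeR adjusted p = 0.0140). The mutant call was lost without mutant replicate 1 (0.0602) or 3 (0.0577) or with the block within the 6 libraries (0.0634), and the rescue call without rescue replicate 1 (0.0522), 2 (0.0594) or 3 (0.0565), all edgeR adjusted p. GstO3 (FBgn0035904), the most abundant Omega gene per kilobase, measured 187, 283 and 197 CPM in controls, 199.7, 164 and 167 in mutant libraries and 141, 134 and 155 in rescue libraries. Rescue libraries lay below both other groups. The rescue difference from control of -0.63 ± 0.17 lay at the threshold without passing it (edgeR adjusted p = 0.0501). It passed with DESeq2, with library totals alone, with upper-quartile scaling and without control replicate 1 or 3. As a share of the class's per-kilobase level, GstO2 took 26.5% in control, 43.9% in the mutant and 49.4% in the rescue, and GstO3 took 71.3%, 55.3% and 49.7%.

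GstS1 (FBgn0010226), the only Sigma gene, is abundant in flight muscle and acts on products of lipid peroxidation. It measured 110.1, 92.0 and 68.5 CPM in controls, 238, 157 and 214 in mutant libraries and 234, 239 and 166 in rescue libraries. Controls were below both other groups, which overlapped. GstS1 rose by 1.17 ± 0.23 log2 units in the mutant (edgeR adjusted p = 0.0150) and by 1.24 ± 0.23 in the rescue (edgeR adjusted p = 0.0105). The mutant call was lost without mutant replicate 1 (0.0631) or 3 (0.0519), both edgeR adjusted p, and the rescue call passed under all 18 alternatives. The sum of the visceral muscle markers lay below control in the mutant and overlapped control in the rescue, and its part was not tested.

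None of the 4 Theta genes passed in any comparison in the edgeR fit to all 9 libraries with TMM scaling. At an unadjusted p under 0.05 the count was 1 higher for the mutant and 1 for the rescue against control, GstT4 both times, and none for rescue against mutant; DESeq2 called GstT4 in both comparisons with control. Over all genes 11.2% were higher at that unadjusted threshold for the mutant and 12.6% for the rescue, and DESeq2 called 14.1% and 17.9%. GstT4 (FBgn0030484), on the X chromosome, measured 565, 684 and 209 CPM in controls, 1220.4, 1027 and 1294 in mutant libraries and 1128, 915 and 819 in rescue libraries. Controls were below both other groups, with control replicate 3 far below. The log2 differences of 1.28 ± 0.36 in mutant libraries and 0.97 ± 0.36 in the rescue did not pass (edgeR adjusted p = 0.0657 and 0.117). Without control replicate 3 the mutant difference was smaller, 0.93, and passed (edgeR adjusted p = 0.0233). The mutant difference also passed with edgeR on library totals alone and without control replicate 2. The other Theta genes, GstT1, GstT2 and GstT3, ranged from 15.8 to 57.0 CPM over the 9 libraries. Their log2 differences between groups lay between -0.14 and 0.18, and none passed.

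The Zeta class holds the maleylacetoacetate isomerase of tyrosine breakdown. GstZ1 (FBgn0037696) measured 8.27, 7.16 and 7.44 CPM in controls, 13.2, 10.3 and 11.7 in mutant libraries and 11.5, 10.5 and 10.3 in rescue libraries. All controls were below the other groups. It rose by 0.62 ± 0.13 log2 units in the mutant (edgeR adjusted p = 0.0191) and by 0.50 ± 0.13 in the rescue (edgeR adjusted p = 0.0376). The mutant call was lost without control replicate 2 (0.0503) or mutant replicate 1 (0.0774) or 3 (0.0560), and with the block within the 6 libraries (0.0637). The rescue call was lost without control replicate 2 (0.0809) or 3 (0.0556), mutant replicate 3 (0.0518), or rescue replicate 1 (0.0996), 2 (0.0810) or 3 (0.0937), all edgeR adjusted p. Its neighbour GstZ2, at 0.678 to 1.29 CPM, had differences of 0.55 ± 0.26 and 0.36 ± 0.26, which did not pass (edgeR adjusted p = 0.227 and 0.412).

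Other genes of glutathione chemistry were read from lists of the same pathway. Of 8 genes tested for glutathione synthesis and turnover, none passed in any comparison. Gclc, the catalytic subunit of glutamate-cysteine ligase, which sets the rate of synthesis, averaged 350 CPM in controls, 461 in mutant libraries and 445 in rescue libraries, with a log2 difference of 0.40 ± 0.15 in the mutant (edgeR adjusted p = 0.149). Its partner subunit Gclm averaged 229, 295 and 313 CPM. At an unadjusted p under 0.05, 1 of the 8 was higher and 1 lower in the mutant, and 3 were higher and 1 lower in the rescue, against control. Between rescue and mutant the count was 0. Over all genes the shares at that threshold were 11.2% higher and 12.8% lower for mutant against control, and 12.6% and 14.7% for rescue against control. DESeq2 called none of the 8. None of 6 thioredoxin and glutaredoxin genes, 5 superoxide dismutase and catalase genes, 3 membrane glutathione transferases and 5 other proteins with a transferase domain passed with edgeR in any of the 3 comparisons. At an unadjusted p under 0.05, 3 of these 19 were lower in the mutant than in control (1 thioredoxin or glutaredoxin gene, 1 membrane transferase and 1 of the other proteins), 2 were lower in the rescue than in control, and the count between rescue and mutant was 0. Over all genes 12.8% were lower for mutant against control and 14.7% for rescue against control at that threshold. DESeq2 called Trx2, a thioredoxin, lower in the mutant, and eEF1gamma, a translation elongation factor subunit, lower in the rescue, both against control. Over all genes DESeq2 called 14.1% and 17.9% in these comparisons. The regulators cnc (494, 561 and 587 CPM in controls, mutant and rescue) and Keap1 (43.7, 36.6 and 40.9 CPM) did not pass either, and neither did the other 2 genes of their list; none of the 4 was under an unadjusted p of 0.05 or called by DESeq2.

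Among 13 conjugate exporters of ABC class C, 1 rose in the mutant, and 2 rose and 1 fell in the rescue, against control. Over all genes 6.67% passed in either direction for the mutant and 9.44% for the rescue. At an unadjusted p under 0.05, 2 were higher and 2 lower in the mutant, and 3 higher and 2 lower in the rescue. Shares of all genes there were 11.2% and 12.8%, and 12.6% and 14.7%. DESeq2 called 2 higher in the mutant, and 2 higher and 2 lower in the rescue, beside 14.1% and 17.9% of all genes. Between rescue and mutant none of the 13 passed with edgeR. There 1 was higher at an unadjusted p under 0.05 and DESeq2 called 1, beside 2.9% and 1.24% of all genes. MRP (FBgn0032456), an exporter of glutathione conjugates, measured 568, 454 and 510.1 CPM in controls, 1169, 984 and 1046 in mutant libraries and 1067, 1101 and 795 in rescue libraries. All controls were below the other groups. It rose by 1.06 ± 0.17 log2 units in the mutant (edgeR adjusted p = 0.00716) and by 0.95 ± 0.17 in the rescue (edgeR adjusted p = 0.0105). In the rescue, the exporter gene FBgn0010549 rose by 1.74 ± 0.30 (edgeR adjusted p = 0.00841), from a mean of 2.597 CPM in control to 8.71. CG11898 fell by 0.71 ± 0.15 (edgeR adjusted p = 0.0191), from 104 to 63.7 CPM, a call lost without rescue replicate 1 (0.0782), 2 (0.0806) or 3 (0.0601), all edgeR adjusted p.

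Of 7 glutathione peroxidases and peroxiredoxins, Prx6b (FBgn0033520), a peroxiredoxin, was the 1 that passed. It did so for rescue against control and rescue against mutant, where 9.44% and 0.466% of all genes passed. DESeq2 also called Gtpx, a glutathione peroxidase homologue, lower in the mutant and in the rescue against control, and Prx6c lower in the rescue than in the mutant. Over all genes DESeq2 called 14.1%, 17.9% and 1.24% in the same order. At an unadjusted p under 0.05, 1 of the 7 was higher and 2 lower in the mutant, and likewise in the rescue, against control. Shares of all genes there were 11.2% and 12.8%, and 12.6% and 14.7%. Between rescue and mutant 1 was higher and 1 lower, beside 2.9% and 2.16%. Prx6b measured 0.490, 1.05 and 1.15 CPM in controls, 1.55, 1.06 and 0.928 in mutant libraries and 5.49, 5.84 and 6.68 in rescue libraries. Rescue libraries were above all others, and control and mutant overlapped. Prx6b rose in the rescue by 2.74 ± 0.33 log2 units against control (edgeR adjusted p = 0.00146) and by 2.35 ± 0.33 against the mutant (edgeR adjusted p = 0.0141). The call against the mutant was lost without mutant replicate 2 (0.109) or 3 (0.103) or rescue replicate 1 (0.0560), 2 (0.0614) or 3 (0.0770), all edgeR adjusted p.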

How the data were processed

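The values were the counts per gene that the authors deposited for each library, whole numbers with no scaling. Alignment with TopHat2 2.0.11 to build dm3 and counting with HTSeq are named in the submitters' processing notes; the HTSeq version, strand setting and overlap mode are not given in the sources used here. Per the labels, poly(A) RNA from Trizol extracts was prepared with a stranded kit and read from both ends. Of 15682 identifiers, 15002 were paired with a symbol. Exon lengths, strands and neighbours were read from Ensembl release 115 (BDGP6), another build, so no coordinates are given. The 5 summary lines, which are not genes, were dropped from each file; among them, non-unique alignments were 14.6% to 16.5% of counted alignments in control, 15.8% to 22.9% in the mutant and 18.4% to 19.5% in the rescue. Reads shared by similar family members would fall there.

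In R 4.3.3, edgeR 4.0.16 tested 10088 genes left by filterByExpr (10 counts, 15 in total), with TMM scaling, a mean per group over all 9 libraries, the quasi-likelihood test and Benjamini-Hochberg adjustment over all genes. SE was taken from the F statistic (common biological coefficient of variation 0.246). The model was tested on simulated data. No library was a copy of another by a chi-square test of counts. A count of 0 allows up to 3 counts, 0.0354 CPM before TMM scaling in the shallowest library, which covers counting error only.

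The genes and lists were chosen with earlier results of these data known. Genes are given by library where they passed in any comparison, led their class per kilobase, or lay apart from control by at least 1.5-fold without passing; GstD5 and GstD8 were added after their values were seen. Arrays join members under 10 kb apart. Alternatives were RLE, upper-quartile and unscaled totals, no filter, 1 CPM in 3 libraries, DESeq2 1.42.0, a replicate block, fits to the 6 libraries compared, leaving out each library and, added after seeing the data, the block in those 6. The titles number the replicates and do not name pairs. Same-numbered control and mutant libraries deviated together (r = 0.204, 0.176 and 0.170 across genes), so their numbers were read as possible pairs. Differently numbered control and mutant libraries gave -0.163 to -0.00355. A differently numbered pair of other groups reached 0.167 (control replicate 1 with rescue replicate 3). Except where a block is named, the values come from the fit without pairs. For the rescue the values were uneven: 0.0237, 0.250 and 0.0304 with control, and 0.0964, 0.0726 and -0.237 with the mutant. The rescue was not read as paired.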

Additional observations from a re-analysis of the deposited data

How the results depend on the processing

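Among the glutathione transferase and pathway genes that passed, no log2 difference reversed under the 18 alternatives. The median over all genes for rescue against control, -0.03, was 0.01 without control replicate 3. For mutant against control, 7 genes passed, and 5 to 10 under other scalings, filters, DESeq2 (10), the replicate block (8, GstE9 added and no other call of the family changed) and the 6 libraries compared; leaving out 1 library gave 1 to 9. Over all genes 673 passed for mutant against control, 1416 with DESeq2, 416 within the 6 libraries and 329 to 758 on leaving out 1 library. For rescue against control, 8 passed, beside 952 over all genes. The 6 libraries compared gave 5 and leaving out 1 library gave 4 to 10, beside 494 and 360 to 974 over all genes. The replicate block gave 10 there, adding GstD7 and GstE9, although those libraries were not read as pairs. Over all genes 917 passed with that block. For rescue against mutant, where edgeR passed 0, upper-quartile scaling, library totals alone and the 6 libraries compared gave 1 each (GstE5), no filter gave 2, DESeq2 gave 4, the replicate block gave 2 with all libraries and 2 within the 6 compared (GstE2 and GstE5), and leaving out 1 library gave 0 to 1. Over all genes 47 passed for rescue against mutant, 125 with DESeq2, 70 within the 6 and 21 to 71 on leaving out 1 library. GstO2 and GstZ1 in both comparisons with control, and GstE10 in the rescue, did not pass within the 6 libraries compared. GstZ1 did not pass with library totals alone (edgeR adjusted p = 0.0580 for the mutant and 0.0863 for the rescue) or, in the rescue, with upper-quartile scaling (0.0682). With the block within the 6, 5 genes passed for mutant against control (GstO2, GstO1 and GstZ1 lost, GstD10 gained) and 9 for rescue against control (GstZ1 lost, GstD7 and GstD8 gained), and MRP in the rescue did not pass (0.0605). Over all genes 379 and 479 passed with the block within the 6, in the same order. The causes were not tested.

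Among the 51 genes tested of the pathway lists, 1 passed for mutant against control (6.67% of all genes). The counts were 1 for rescue against mutant (0.466% of all genes) and 4 for rescue against control (9.44%). Without control replicate 1 the 3 counts were 3, 2 and 9. Over all genes 758, 39 and 952 passed there, in place of 673, 47 and 952. With DESeq2 the counts were 4, 3 and 7, beside 14.1%, 1.24% and 17.9% of all genes. The replicate block and library totals alone each gave 2 for mutant against control, beside 759 and 703 over all genes. Rescue against mutant gave 2 within the 6 libraries compared, with or without the block, beside 63 and 70 over all genes. It gave 0 without mutant replicate 2 or 3 or any 1 rescue library, beside 21 to 23 over all genes. Rescue against control gave 2 with the block within the 6, beside 479 over all genes.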
